A study of Mus musculus with 13 samples.

Results

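The 4 Hox clusters of the mouse genome held 79 of the 23280 ChIP-seq peaks listed for Nkx2.2, Nkx6.1, Olig2 and Gli3 in neural progenitors made from embryonic stem cells. A peak was counted when its centre lay in the window of a cluster on the mouse build mm9: 52.05 to 52.27 Mb of chromosome 6 for HoxA, 95.95 to 96.28 Mb of chromosome 11 for HoxB, 102.7 to 102.92 Mb of chromosome 15 for HoxC and 74.45 to 74.66 Mb of chromosome 2 for HoxD. The members were thus chosen by the positions of the called peaks, in windows drawn with those positions known, so their number is a description. Of the 79 peaks, 13 came from the 5551 peaks of the Nkx2.2 list, 20 from the 4094 of Nkx6.1, 31 from the 11747 of Olig2 and 15 from the 1888 of Gli3.

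All cultures received 500 nM retinoic acid and followed the same schedule of 2 days in suspension and 3 further days. For the ventral factors Nkx2.2, Nkx6.1 and Olig2, 160 to 800 nM of a Smoothened agonist was added, which switches on Sonic hedgehog signalling. The first replicates of Olig2 and Nkx6.1 were made in the line YFP3.1. Rosa26-Gli1FLAG, a YFP3.1 derivative, gave every other ventral library. Both lines have a mixed background (Swiss Webster, 129 Sv, C57BL6/J). Gli3 was precipitated through a 3xFLAG-Avi tag inserted at its initiation codon in V6.5 cells (C57BL/6 X 129/sv), in cultures without the agonist that the labels call dorsal. Factor, culture, line and antibody therefore cannot be told apart in any comparison with Gli3. There were 7 ChIP libraries and 6 inputs, with 1 peak list per factor, and the labelled cell type could not be set against marker expression because no expression values were used here. Depth per library is unknown.

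Hox genes encode homeodomain transcription factors that give cells along the body axis their position. In each cluster the genes lie in the order in which they act from head to tail, and low-numbered genes respond first to retinoic acid and are used in the hindbrain. Nkx2.2 and Nkx6.1 are homeodomain factors and Olig2 a basic helix-loop-helix factor that binds E-box sequences. All 3 pattern the ventral spinal cord, and Gli3 is a zinc finger factor through which Sonic hedgehog acts, largely as a repressor where the signal is absent.

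No mm9 genome was used here, so the letters under the peaks are not shown and no peak was assigned to a gene. The RefSeq promoters of build GRCm38.p6 show what the gene starts of the clusters hold, but their positions cannot be set against the mm9 peaks. Promoters of 22 of the 38 Hox genes considered were matched, 24 in all, each with 250 bases before and 50 after the annotated start. Among the E-boxes, the motif class that Olig2 recognises, CAGCTG was found in 4 of 10 HoxA promoters (Hoxa3, Hoxa5, Hoxa6 and Hoxa11), in 0 of 3 of HoxB, 0 of 1 of HoxC and 0 of 10 of HoxD. Over the 4 clusters together this was 4 of 24 promoters, beside 16.3% of all 32851 promoters. CAGATG was found in 3 of 24, at Hoxa6, Hoxb1 and Hoxb4, beside 17.2% of all promoters. No difference from all promoters or between clusters was tested. Both strands were searched, and CAGCTG reads the same on each. The 250 bases before the start are printed on the gene's strand for 5 of these genes because they show where in a Hox promoter such a match lies. Capitals mark each E-box match that lies wholly before the start, and the letters CATCTG stand for the other E-box, CAGATG, on the opposite strand. Hoxa3 (chr6:52213068-52213317, minus strand), Hoxa5 (chr6:52204588-52204837, minus strand) and Hoxa6 (chr6:52208673-52208922, minus strand) carry CAGCTG. Hoxb1 (chr11:96365508-96365757, plus strand) and Hoxb4 (chr11:96318017-96318266, plus strand) carry CAGATG.
Hoxa3: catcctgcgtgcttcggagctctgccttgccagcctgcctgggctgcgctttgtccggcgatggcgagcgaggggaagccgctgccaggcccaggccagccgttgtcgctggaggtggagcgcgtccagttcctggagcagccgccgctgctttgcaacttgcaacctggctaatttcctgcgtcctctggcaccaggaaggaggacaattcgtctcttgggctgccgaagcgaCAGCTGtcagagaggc
Hoxa5: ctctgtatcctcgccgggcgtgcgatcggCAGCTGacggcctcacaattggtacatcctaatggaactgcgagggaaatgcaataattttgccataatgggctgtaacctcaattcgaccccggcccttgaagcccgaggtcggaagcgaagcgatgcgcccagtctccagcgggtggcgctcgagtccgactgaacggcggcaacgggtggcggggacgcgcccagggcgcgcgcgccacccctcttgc
Hoxa6: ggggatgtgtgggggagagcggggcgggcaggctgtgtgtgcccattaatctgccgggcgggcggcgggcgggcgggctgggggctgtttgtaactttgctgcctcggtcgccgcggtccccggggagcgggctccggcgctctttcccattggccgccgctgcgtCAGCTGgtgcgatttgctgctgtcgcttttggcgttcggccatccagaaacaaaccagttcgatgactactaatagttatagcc
Hoxb1: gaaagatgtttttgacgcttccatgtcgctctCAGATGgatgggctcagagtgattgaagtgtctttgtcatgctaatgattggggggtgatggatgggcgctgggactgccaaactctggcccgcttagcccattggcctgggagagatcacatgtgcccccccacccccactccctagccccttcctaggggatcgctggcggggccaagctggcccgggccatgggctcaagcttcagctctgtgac
Hoxb4: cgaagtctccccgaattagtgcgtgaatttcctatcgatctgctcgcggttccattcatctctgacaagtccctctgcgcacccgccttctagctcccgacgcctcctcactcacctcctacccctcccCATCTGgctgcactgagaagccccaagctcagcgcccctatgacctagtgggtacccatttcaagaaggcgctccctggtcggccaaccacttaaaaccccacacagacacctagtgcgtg
The match began 16 bases before the annotated start of Hoxa3 and 84 bases before that of Hoxa6, and farther upstream in the other promoters printed. A match is a run of letters, not a measured site.

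Other motifs were rare or absent in the same 24 promoters. The homeodomain motif TAATTA was found in both Hoxd11 promoters (5.29% of all promoters), and TGATTGAT, known for Hox proteins bound with Pbx, at Hoxa2 and Hoxd11 (0.746%). The Gli motif GACCACCCA, the Nkx2.2 motif CACTTGA, the homeodomain motif TTAATTAA, the E-box CATATG, the Hox and Pbx motif TGATTTAT and both forms of the direct repeat that retinoic acid receptors bind were found in 0 of 24. Their shares of all promoters were 0.253%, 3.06%, 0.615%, 3.91%, 0.977%, 0.00913% and 0.0244%. TAATTA lies within TTAATTAA, so these motifs overlap.

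HoxA was the most densely bound cluster for each factor. It held 39 peaks in 220 kb, HoxD 15 in 210 kb, HoxC 13 in 220 kb and HoxB 12 in 330 kb. Per Mb this was 177.27 peaks in HoxA, 71.4 in HoxD, 59.1 in HoxC and 36.4 in HoxB, beside 8.83 over the span of all lists. In HoxA, Olig2 had 13 peaks, Nkx2.2 11, Nkx6.1 9 and Gli3 6. The density there was that of the whole list multiplied by 38.1 (Gli3), 26.3 (Nkx6.1), 23.7 (Nkx2.2) and 13.3 (Olig2). When each chromosome was cut into 220 kb pieces (11995 in all), as many Nkx2.2 peaks as in HoxA were found in 1 piece, as many Nkx6.1 peaks in 1, as many Olig2 peaks in 3 and as many Gli3 peaks in 5. The pieces were cut at fixed places, while the window was set around HoxA. A fixed cut can split a dense stretch, and 1 ran through that of HoxA. These counts of pieces can therefore be too low as a measure of rarity.

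The factors were spread unequally over the other clusters. HoxB held 4 Nkx6.1, 4 Olig2, 2 Nkx2.2 and 2 Gli3 peaks. HoxC held 6 Olig2, 4 Gli3 and 3 Nkx6.1 peaks, and HoxD held 8 Olig2, 4 Nkx6.1 and 3 Gli3 peaks. Nkx2.2 had no peak in HoxC or HoxD, where its list-wide density corresponds to 0.463 and 0.442 peaks. Only 30.0% of 220 kb pieces of the genome held any Nkx2.2 peak, so an empty window is common for this list. Gli3, the shortest list, put 0.794% of its peaks in the 4 windows, Nkx6.1 0.489%, Olig2 0.264% and Nkx2.2 0.234%.

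**Figure D1:**
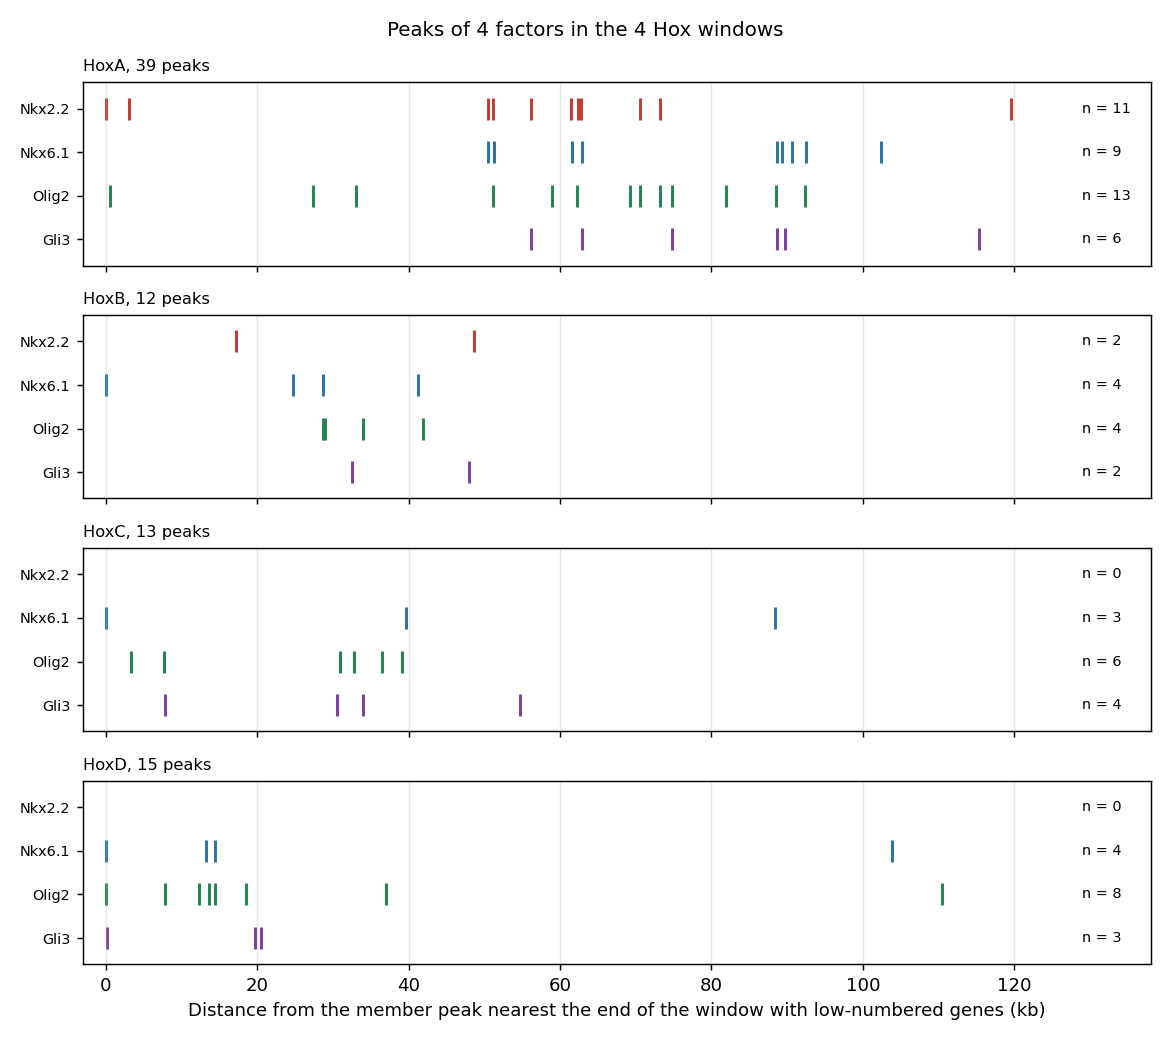
Peaks of 4 factors (rows, 1 tick per peak centre, n at the right) in the 4 Hox windows, by distance in kb from the member peak nearest the end with low-numbered genes. HoxA carries 39 of the 79 ticks and the Nkx2.2 rows of HoxC and HoxD hold none.

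Most peaks lay on the low-numbered side of their window. In the RefSeq gene order, Hoxa2 was the listed HoxA gene at the lowest coordinate, while Hoxb1, Hoxc4 and Hoxd1 lay at the highest coordinate of their clusters. On the side of the window's midpoint nearer to these genes lay 37 of 39 HoxA peaks, 12 of 12 HoxB peaks, 13 of 13 HoxC peaks and 12 of 15 HoxD peaks, 74 of 79 together. The windows are not centred on the genes, so this count depends on where their ends were set. The longest stretch without a peak reached an edge of the window in each cluster: 214.61 kb in HoxB, 111.45 kb in HoxC, 98.2 kb in HoxA and 68.8 kb in HoxD. In each case that edge was the one beyond the high-numbered genes, except in HoxD, where the empty end was the one beyond Hoxd1. HoxD had a second empty stretch of 66.8 kb between peaks, from chr2:74487231-74487530 (Nkx6.1) to chr2:74554035-74554334 (Olig2). Just outside the HoxA window, the nearest peak was an Nkx2.2 peak at chr6:52271502-52271801, 1.65 kb beyond the edge. The nearest outside peaks were 12.6 kb away for HoxB (Nkx2.2) and HoxC (Nkx6.1) and 25.9 kb away for HoxD (Nkx6.1). Just inside the ends lay Nkx2.2 chr6:52052156-52052455 in HoxA, 2.31 kb from the edge, and Nkx6.1 chr15:102899641-102899940 in HoxC, 20.2 kb from it.

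Most HoxA peaks fell in 1 crowded stretch. A run of peaks with no spacing over 8 kb, a stretch picked after its values were seen, covered chr6:52102611-52144946 (42.3 kb) and held 31 of the 39 HoxA peaks. These were 10 Olig2, 8 Nkx2.2, 8 Nkx6.1 and 5 Gli3 peaks. They joined into 17 regions of overlapping peaks, and all 11 HoxA regions with peaks of more than 1 factor were among them. The median spacing between neighbouring peaks of any list was 660 bp in HoxA, 1070 bp in HoxD, 2530 bp in HoxC and 3611 bp in HoxB.

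Most regions bound by more than 1 factor were in HoxA. Peaks that overlapped by at least 1 bp were joined into 59 Hox regions, of which 15 (25.4%) held 2 or more factors. The same share over all 19087 joined regions of the series was 16.2%. By cluster, 11 of 25 HoxA regions held 2 or more factors, 2 of 12 in HoxD, 1 of 12 in HoxC and 1 of 10 in HoxB. No difference between clusters was tested, since regions of 1 set of lists are not replicates. Of the 44 regions with 1 factor, 19 were bound by Olig2, 11 by Nkx6.1, 9 by Gli3 and 5 by Nkx2.2. Over the series, 15993 regions had 1 factor: 9146 Olig2, 2152 Nkx6.1, 1185 Gli3 and 3510 Nkx2.2. Olig2 was thus the most frequent single factor in both sets. Olig2 and Gli3 shared 1 HoxC region, chr15:102891842-102892287, the only shared one in that cluster. Nkx6.1 and Olig2 shared the only one in HoxB, chr11:96184152-96184738, where the Olig2 list had 2 overlapping peaks.

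Regions with 3 factors numbered 4 of 59, beside 3.56% of all regions, and none held all 4 factors. In HoxA, Nkx2.2, Nkx6.1 and Olig2 met at chr6:52103283-52103681, with centres within 99 bp. Nkx2.2, Nkx6.1 and Gli3 met at chr6:52114987-52115368, a combination found in 10 regions of the whole series. Nkx6.1, Olig2 and Gli3 met at chr6:52140748-52141138 in HoxA and at chr2:74590987-74591384 in HoxD, a combination found in 44 regions of the series. The HoxD region was the outermost bound place of that window on the side of Hoxd1. Without the Gli3 list, 1 of the 4 regions still held 3 factors.

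Seen from each list, the share of Hox peaks that met another list was above that of the whole list for Nkx2.2 and Olig2 and nearer to it for Nkx6.1 and Gli3 when an overlap of at least 1 bp was asked for. These differences were not tested. Of the 13 Nkx2.2 peaks, 8 overlapped a peak of another factor (61.5%, 95% Wilson interval 35.5 to 82.3), beside 35.3% of the list. Of the 31 Olig2 peaks, 12 did so (38.7%, 23.7 to 56.2), beside 21.7%. Of the 20 Nkx6.1 peaks, 9 did so (45%, 25.8 to 65.8), beside 47.1%. Of the 15 Gli3 peaks, 6 did so (40%, 19.8 to 64.3), beside 36.3%. The intervals cover counting error only, and neighbouring peaks are not independent, so they are too narrow as a measure of error between cultures. All 8 overlapping Nkx2.2 peaks were in HoxA, and neither of the 2 HoxB peaks overlapped another list. For Olig2, 7 of 13 HoxA peaks overlapped another list, 2 of 4 in HoxB, 1 of 6 in HoxC and 2 of 8 in HoxD. None of the 3 HoxC peaks of Nkx6.1 overlapped another list, though chr15:102859977-102860276 had an Olig2 centre 583 bp away. By pair, an Nkx6.1 peak met 4 of 13 Nkx2.2 peaks (16.1% of the list) and 7 of 31 Olig2 peaks (13.5%). An Olig2 peak met 4 of 13 Nkx2.2 peaks (24.3%) and 6 of 20 Nkx6.1 peaks (38.6%), and an Nkx2.2 peak met 4 of 20 Nkx6.1 peaks (21.5%) and 4 of 31 Olig2 peaks (11.2%). When peaks were matched by centres within 1000 bp, 70% of the Nkx6.1 peaks had a partner (51.4% of the list), 58.1% of the Olig2 peaks (25.5%), 76.9% of the Nkx2.2 peaks (39.1%) and 60% of the Gli3 peaks (43.6%). At that distance the share of each factor in the Hox windows lay above that of its list. Peaks are denser in these windows than over the lists, and what this crowding adds to the shares at either distance was not tested.

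**Figure D2:**
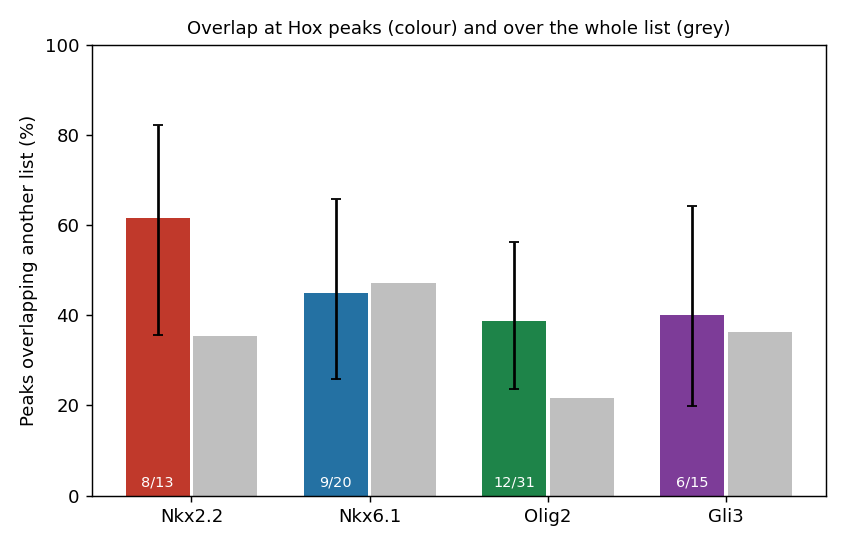
Share of peaks (%) that overlap a peak of any other list by at least 1 bp, for Hox peaks (coloured bars, with counts and 95% Wilson intervals) and for the whole list (grey bars). Nkx2.2 stands at 61.5% beside 35.3% and Olig2 at 38.7% beside 21.7%, while the bars of Nkx6.1 and Gli3 are nearly level.

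Gli3 peaks in the Hox windows were met by Nkx6.1 and Olig2 at shares above those of the whole list and by Nkx2.2 at a share below it. Of 15 Gli3 peaks, an Olig2 peak met 4 (26.7%, beside 20.1% of the list), an Nkx6.1 peak 3 (20%, beside 7.36%) and an Nkx2.2 peak 2 (13.3%, beside 22.5%). In the other direction each share, that of Nkx2.2 included, was above its list. Gli3 peaks lay at 4 of 31 Olig2 peaks (12.9%, beside 3.26% of the list), 3 of 20 Nkx6.1 peaks (15%, beside 3.47%) and 2 of 13 Nkx2.2 peaks (15.4%, beside 7.91%). These counts are small, and no difference from the list was tested. Of the Gli3 peaks with a ventral partner, 4 lay in HoxA, at chr6:52108288-52108587 (Nkx2.2), chr6:52115002-52115301 (Nkx2.2 and Nkx6.1), chr6:52126880-52127179 (Olig2) and chr6:52140839-52141138 (Nkx6.1 and Olig2). The others were chr15:102891842-102892141 in HoxC (Olig2) and chr2:74590987-74591286 in HoxD (Nkx6.1 and Olig2). The 9 Gli3 peaks without one were chr6:52141889-52142188 and chr6:52167523-52167822 in HoxA, chr11:96165104-96165403 and chr11:96180541-96180840 in HoxB, chr15:102844976-102845275, chr15:102865619-102865918 and chr15:102869114-102869413 in HoxC, and chr2:74570646-74570945 and chr2:74571440-74571739 in HoxD. Of these, 7 had a ventral centre within 2 kb, at a median of 1263 bp over the 9, and the most distant was the first of the HoxC peaks, 15001 bp from an Nkx6.1 centre. The share within 2 kb was not computed for the whole Gli3 list. Ventral peaks are denser in these windows than over their lists, so the 7 are not a trait shown for these Gli3 peaks.

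The deposited coverage tables gave the height of the ventral peaks. Each of the 3 tables covers 2000 bp on both sides of every peak of its list in 3 blocks of columns that name no library, and no scaling between blocks or tables is stated. Values are therefore read within 1 block of 1 table, as the mean within 250 bp of the peak centre in the deposited units, and as a percentile, the share of the table's peaks with a lower value. There was no table for Gli3. Block 3 of the Nkx6.1 and Olig2 tables held equal values in 99.4% of 12465 bins at 80 pairs of peaks with aligned bins (tolerance 1e-06), so it is 1 signal entered in both tables. Other pairs of blocks were equal in 4.73% to 21.4% of bins. Only an input is labelled as belonging to both factors. The deposited names of the 3 tables each list 3 codes, and those of Nkx6.1 and Olig2 share only the last. Which block holds which library was not given in the sources used here. In all 3 tables peaks stood out least in block 3: 56.3%, 38.4% and 40.3% of the Nkx2.2, Nkx6.1 and Olig2 lists were over 2 times their flank there, beside 94.9% or more in blocks 1 and 2.

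In block 1 the median Hox peak lay near the middle of its list for Olig2 and Nkx6.1 and above it for Nkx2.2. In block 2 it lay above the middle in each table. For Nkx2.2, the median Hox peak had a coverage of 21.5 in block 1 (lowest 11.0, highest 31.2) and 6.73 in block 2 (2.46 to 20.7), beside table medians of 18.4 and 4.43. For Nkx6.1, it was 9.68 in block 1 (4.92 to 59.9) and 7.77 in block 2 (2.19 to 22.8), beside 10.4 and 5.19. For Olig2, it was 11.7 in block 1 (3.58 to 27.6) and 11.7 in block 2 (2.63 to 40.04), beside 11.3 and 8.44. In percentiles, the medians in block 1 were 52.1 (Olig2), 43.98 (Nkx6.1) and 62.5 (Nkx2.2), and those in block 2 were 64.9, 69.3 and 70.3. The block 2 difference from the table median, on the log2(coverage + 1) scale, was 0.51 (Nkx2.2), 0.50 (Nkx6.1) and 0.43 (Olig2), with an SD between single Hox peaks of 0.72, 0.80 and 0.91. It depended on the comparison. Against peaks of the table with another peak of their list within 10 kb it was 0.26, 0.18 and 0.19, and with each peak divided by its own flank it was -0.21, -0.21 and -0.34. Above the table median in block 2 were 15 of 20 Nkx6.1, 18 of 31 Olig2 and 9 of 13 Nkx2.2 peaks. In block 3, the signal common to both tables, Hox peaks also ranked above the middle, with median percentiles of 73.4 for Nkx6.1 and 66.8 for Olig2, and with 57.7 for Nkx2.2. What the raised block 3 contributes to the values of blocks 1 and 2 was not tested.

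For Nkx2.2 and Olig2 the rank correlation between blocks 1 and 2 was lower over the Hox peaks than over the whole list. Spearman's rho between blocks 1 and 2 was 0.22 over the 13 Nkx2.2 peaks (0.66 over the list), 0.50 over the 31 Olig2 peaks (0.73) and 0.62 over the 20 Nkx6.1 peaks (0.64). Between blocks 1 and 3 it was -0.58 for Nkx2.2 (-0.17 over the list), 0.44 for Olig2 (0.12) and 0.24 for Nkx6.1 (0.19). The SD of log2(coverage + 1) in block 1 was 0.46 over the Nkx2.2 Hox peaks (0.75 over the list) and 0.54 for Olig2 (0.94). For Nkx6.1 it was 0.92 (0.71). What the narrower spread of Nkx2.2 and Olig2 adds to their lower rho was not tested. These are descriptions over peaks that share the same libraries.

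**Figure D3:**
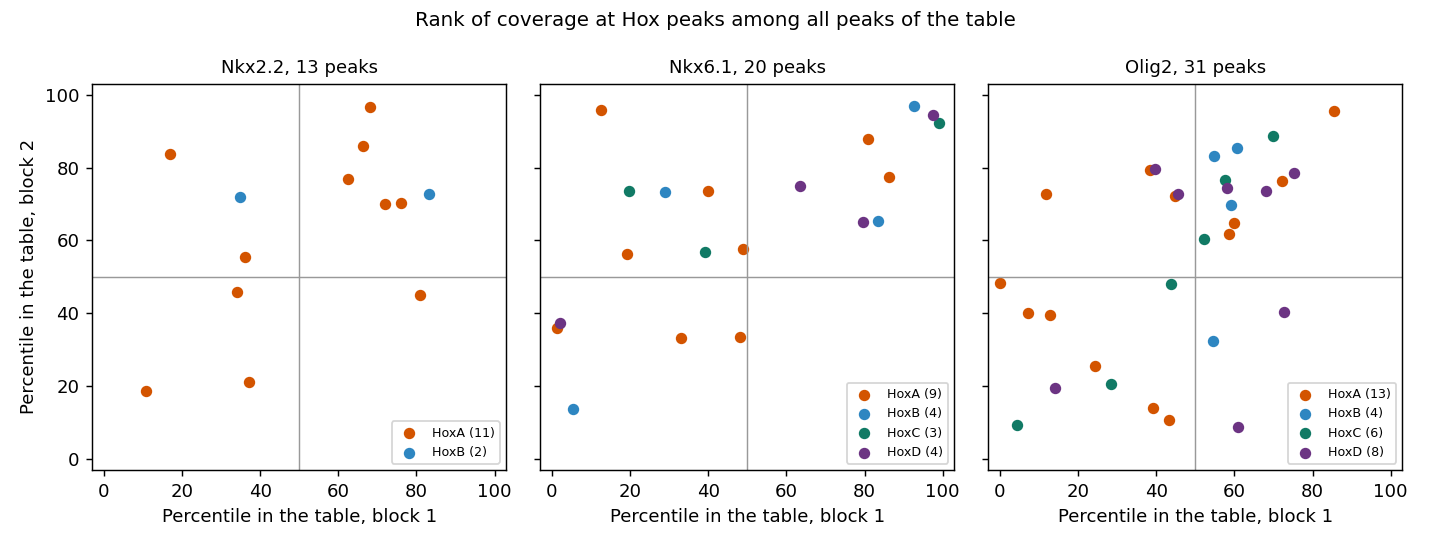
Percentile of each Hox peak among all peaks of its table in block 1 (x) and block 2 (y), coloured by cluster, with grey lines at 50. The Nkx6.1 peaks of HoxB, HoxC and HoxD at the upper right exceed 92 in both blocks, and the Nkx2.2 peaks show no common order in the 2 blocks.

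In block 1 the highest Nkx6.1 peaks of the Hox windows lay outside HoxA. Of its 20 Hox peaks, 3 were at or above the 90th percentile of block 1 (9.99% of the list), 4 in that of block 2 (9.97%) and 6 in that of block 3 (9.89%). The HoxC peak chr15:102899641-102899940, which stood alone, had a coverage of 59.9 in block 1 (percentile 98.97), 15.96 in block 2 (92.2) and 2.35 in block 3 (99.4). The HoxD peak chr2:74591085-74591384, within the region shared with Olig2 and Gli3, had 41.9 in block 1 (97.6), 18.3 in block 2 (94.5) and 1.31 in block 3 (90.1). The HoxB peak chr11:96171840-96172139 had 26.6 in block 1 (92.6), 22.8 in block 2 (96.8) and 0.766 in block 3 (58.4). These 3 peaks were high in blocks 1 and 2, and the HoxC and HoxD peaks were also above the 90th percentile of block 3. In HoxA the highest Nkx6.1 value was 19.9 in block 1 (86.3), at chr6:52144647-52144946 beside an Olig2 peak. The highest in block 2 was 20.9 (95.9), at chr6:52140755-52141054, below the HoxB peak and above those of HoxC and HoxD. That peak had only 6.61 in block 1 (12.6), so the blocks did not rank it alike. The lowest Nkx6.1 peak of the HoxB window, chr11:96213072-96213371, the outermost of its window on the side of Hoxb1, had 5.76 in block 1 (5.35) and 2.19 in block 2 (13.7).

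Olig2 had its highest Hox peak in HoxA, where Nkx6.1 and Gli3 also bound. At chr6:52140748-52141047 its coverage was 27.6 in block 1 (percentile 85.4) and 40.04 in block 2 (95.4). It was the only Olig2 peak of the 31 at or above the 90th percentile of block 2, beside 0 in block 1 (9.99% of the list in each) and 3 in block 3 (9.92%). In HoxC the highest was chr15:102891988-102892287, with 16.5 in block 1 (69.8) and 25.2 in block 2 (88.7), shared with Gli3. In HoxD the highest in block 1 was chr2:74591013-74591312, shared with Nkx6.1 and Gli3, with 19.01 (75.1) and with 16.99 in block 2 (78.4). The highest in block 2 was chr2:74578754-74579053, with 17.7 there (79.6) and 9.76 in block 1 (39.7). In HoxB it was chr11:96184439-96184738 in both blocks, with 13.7 (60.7) and 21.7 (85.3). The highest Olig2 peaks of HoxA and HoxC, and the highest of HoxD in block 1, were thus at Gli3 peaks. The highest of HoxB, and that of HoxD in block 2, were not. Among the 4 Olig2 Hox peaks that met Gli3 was also chr6:52126947-52127246 in HoxA. It had only 6.62 in block 1 (11.7) and 14.4 in block 2 (72.9). At the other end, chr6:52079566-52079865 in HoxA had 3.58 in block 1, where only 0.017% of the list was lower, and 8.15 in block 2 (48.4). Olig2 peaks that met another ventral list had medians of 13.4 in block 1 and 16.5 in block 2 (10 peaks), and those that met none had 10.3 and 8.11 (21 peaks). In block 3 these 2 sets had 1.17 and 0.840. For Nkx6.1 the medians were nearer in block 1, with 10.2 (9 peaks that met another ventral list) and 9.17 (11 that met none). In block 2 they were 8.49 and 7.05. This split was not made over the whole lists, so it is not shown to be particular to Hox peaks.

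For Nkx2.2, 0 of 13 Hox peaks reached the 90th percentile of block 1, 1 that of block 2 and 1 that of block 3, beside 10.0% of the list in each. In HoxA the highest in block 1 was chr6:52114987-52115286, shared with Nkx6.1 and Gli3, with 29.6 (percentile 80.9) and with 4.11 in block 2 (44.9). The highest in block 2 was chr6:52103345-52103644, shared with Nkx6.1 and Olig2, with 20.7 (96.7) and with 23.4 in block 1 (68.1). In HoxB it was chr11:96195909-96196208 in both blocks, with 31.2 (83.3) and 7.13 (72.6). This HoxB peak stood alone and was the highest of the 13 in block 1. The 7 Nkx2.2 peaks that met another ventral list had medians of 23.4 in block 1 and 6.73 in block 2, and the other 6 had 15.9 and 5.98. In block 3 the medians were 1.21 and 1.47. The same split over the whole list was not made.

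**Figure D4:**
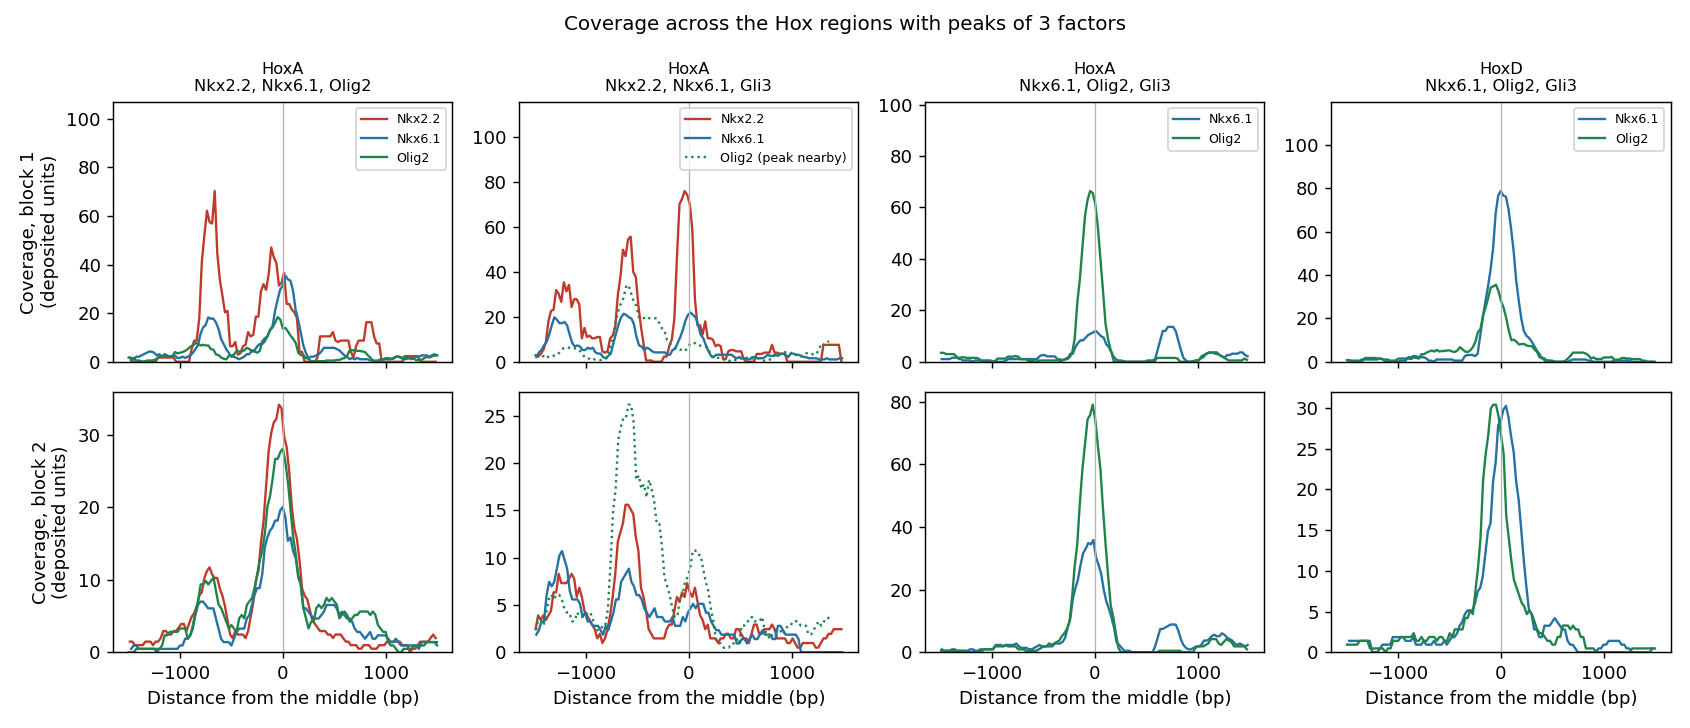
Coverage in deposited units (block 1 above, block 2 below) against distance in bp from the middle of each Hox region with peaks of 3 factors; solid lines are factors with a peak in the region, the dotted line a factor with a peak nearby, and Gli3 has no table. The Olig2 peak of the third HoxA region is the highest Olig2 Hox peak in both blocks (27.6 and 40.04 as means at the centre), while the Nkx2.2 peak of the second stands at percentile 80.9 in block 1 and 44.9 in block 2. Heights of different factors or blocks are not on a stated common scale.

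The flanks of Hox peaks were raised above those of the rest of the list in blocks 1 and 2. The flank was the mean over the outermost 250 bp on each side of the 4 kb covered. For Nkx2.2 its median was 2.77 in block 1 and 1.37 in block 2 over the 13 Hox peaks, beside 0.317 and 0.488 over the table. For Nkx6.1 it was 1.32 and 1.35 over the 20 Hox peaks, beside 0.522 and 0.465, and for Olig2 1.47 and 0.978 over the 31, beside 0.486 and 0.425. Above the upper quartile of the table in block 1 were 8 of 13 Nkx2.2 flanks (24.5% of the list), 15 of 20 Nkx6.1 flanks (25.0%) and 24 of 31 Olig2 flanks (24.8%). In block 2 these counts were 10 (24.5%), 14 (23.7%) and 21 (25.0%). In block 3 they were 3 (24.8%), 11 (24.2%) and 16 (24.2%). The median flank in block 3 was 0.500 for Nkx2.2, beside 0.534, and 0.686 for Nkx6.1 and 0.677 for Olig2, each beside 0.428.

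Neighbouring peaks can lie within the 4 kb covered. The highest Nkx6.1 flank, 16.5 in block 1, belonged to chr6:52142829-52143128, and the peak of 19.9 at chr6:52144647-52144946 lies within its reach. This peak, with a coverage of 7.21 in block 1, was below its own flank. Among Hox peaks with no other peak of the same list within 3 kb, a subset set after seeing the data, the median flank in block 1 was 1.25 for Nkx6.1 (10 peaks, beside 0.522 in the table's peaks of the same kind) and 1.04 for Olig2 (18 peaks, beside 0.452). For Nkx2.2 it was 0.502 (6 peaks, beside 0.238), with 0.013 over the 4 HoxA peaks and 1.95 over the 2 HoxB peaks, so the value rests on HoxB. With no peak of any list within 3 kb, the 6 Nkx6.1 peaks had 1.32 in block 1, beside 0.474, and 1.26 in block 2, beside 0.402. The 7 Olig2 peaks had 0.373 in block 1, beside 0.429, and 0.531 in block 2, beside 0.383. These subsets are small, and the part of neighbouring peaks in the flanks was not tested.

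**Figure D5:**
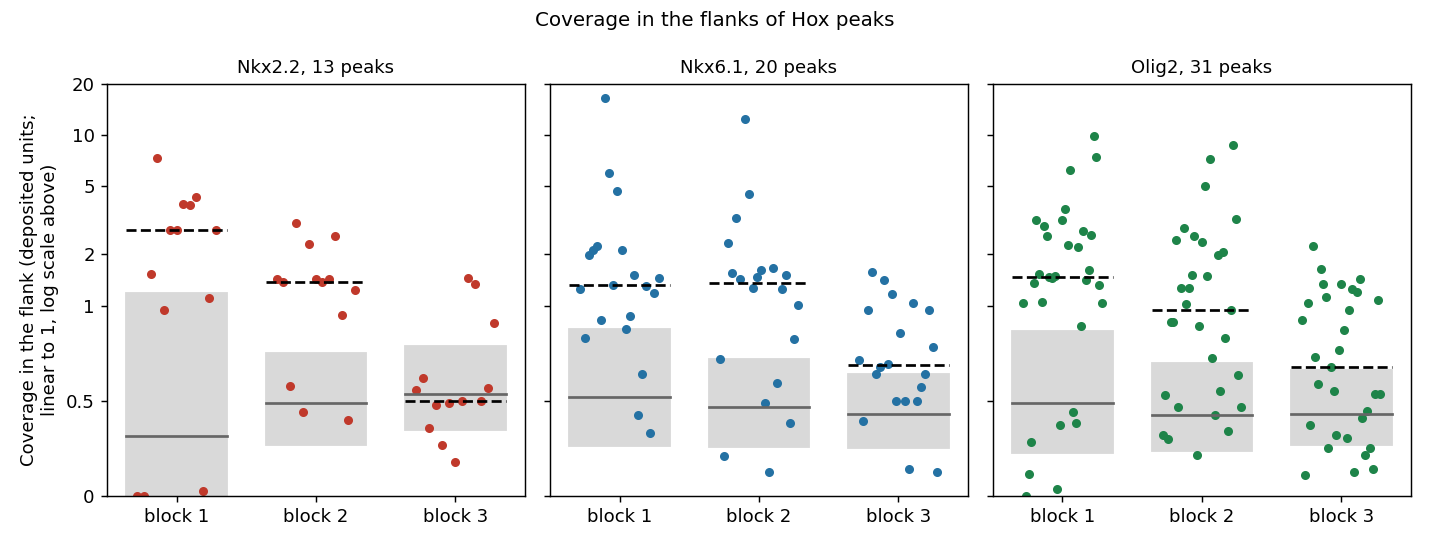
Coverage in the flanks of each Hox peak (points) by block for the 3 tables, in deposited units on an axis that is linear to 1 and logarithmic above; grey boxes are the middle 50% and grey lines the median of all peaks of the table, dashed lines the median of the Hox peaks. The dashed line in block 1 lies at 1.47 (Olig2), 1.32 (Nkx6.1) and 2.77 (Nkx2.2), above the grey box in each, and in block 3 of Nkx2.2 it lies at 0.500, just under the grey line.

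Taken as sets, the Hox peaks also rose less above their flanks than other peaks did in block 1. These flanks can hold neighbouring peaks, and what the neighbours add to the lower ratios was not tested. Over 2 times the flank in block 1 were 13 of 13 Nkx2.2 peaks (99.2% of the list), 19 of 20 Nkx6.1 peaks (99.6%) and 28 of 31 Olig2 peaks (98.8%). In block 2 these were 12 (94.9%), 18 (96.3%) and 30 (97.4%). In block 3 they were 8 (56.3%), 8 (38.4%) and 10 (40.3%). At 4 times the flank, the share of Hox peaks was below that of the list in every block of each table. For Nkx2.2 11, 8 and 2 of 13 passed in blocks 1, 2 and 3 (96.3%, 82.5% and 25.3% of the list). For Nkx6.1 15, 13 and 2 of 20 passed (97.4%, 86.2% and 15.0%), and for Olig2 25, 24 and 3 of 31 (96.7%, 92.1% and 16.4%). The ratio to the flank was also lower: on the log2 scale, with 1 added to both values, the median of Hox peaks minus that of the table came to -1.21 (Nkx2.2), -0.95 (Nkx6.1) and -0.74 (Olig2) in block 1.

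Coverage of a factor was also read at Hox peaks of other factors where its own list had no peak, as far as the table of its own nearest peak reached. Nkx2.2 coverage at 5 such places had a median of 6.53 in block 1, Nkx6.1 coverage at 7 places 3.88 and Olig2 coverage at 18 places 4.29. Places with a called peak of that factor had 23.5, 9.44 and 14.8. The medians at uncalled places thus lay between the table's median flank (0.317, 0.522 and 0.486) and the called places. Some uncalled places were as high as called peaks: Nkx6.1 coverage was 10.2 in block 1 and 5.03 in block 2 at the Olig2 peak chr6:52114391-52114690, where its table median was 10.4 and 5.19. A called Nkx6.1 peak had its centre 612 bp away. Nkx2.2 coverage at the Olig2 peak chr6:52052750-52053049 was 15.7 in block 1 (percentile 35.1) and 5.595 in block 2 (62.5), 594 bp from a called Nkx2.2 centre. What these called peaks add to the values was not tested. Olig2 coverage at the Nkx6.1 peak chr6:52141519-52141818 was 0.663 in block 1 and 0.267 in block 2, close to its table's flank. Such places lie near a called peak by construction, so they do not stand for all Hox peaks.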

How the data were processed

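Peaks and coverage were taken from the 4 peak lists and 3 coverage tables that the authors deposited. The build mm9, HOMER and Bowtie2 2.2.4 appear in the submitters' processing notes, without their roles. Not given in the sources used here are settings and pooling of replicates. The lists give chromosome, start and end without a score, and each peak is 300 bp wide. Coverage in the deposited tables is treated as a score in 25 bp bins, per the file headers, since its unit and scaling are not stated. Row order ties each table to its list.

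Peaks were assigned to windows by their centre, and positions are printed 1-based. Overlap meant at least 1 bp. Peak coverage was the mean over bins up to 250 bp from the centre, flank coverage that over the outermost 250 bp on each side, and log2 differences used a pseudocount of 1. The text names every region with 3 factors, each Gli3 peak, the highest peak per table, cluster and block, and the longest gap per window. Intervals are Wilson intervals (95%). No test was made, because there is 1 list per factor. The members and lists were chosen with earlier results of these data known. Alternatives changed the windows, the matching distance, the centre width, the pseudocount, the background, the clusters and blocks included and the flank threshold. Calculations used Python 3.11.15, numpy 2.4.6, pandas 2.3.3 and SciPy 1.17.1, and were tested on simulated data. All 38 Hox symbols matched the RefSeq gene table, which was used for gene order only.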

Additional observations from a re-analysis of the deposited data

How the results depend on the processing

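No paired analysis was possible because there is 1 list per factor, the columns of the coverage tables carry no library names and no test was made. Of the values recomputed under an alternative, 13 moved beyond their spread and 17 changed sign. HoxA held the most peaks under narrowed and widened windows. With windows widened by 50 kb, HoxB and HoxC held 14 each, Nkx2.2 (17 peaks in all) passed Gli3 (15), and Nkx2.2 had 4 peaks in HoxB. With centres within 1000 bp, the share with a partner rose to 70% for Nkx6.1 and 58.1% for Olig2, and without the Gli3 list 1 region kept 3 factors.

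The height of Hox peaks relative to the table depended on the measure. Divided by the peak's own flank, the log2 difference from the table became -1.21 in block 1 and -0.21 in block 2 of Nkx2.2, -0.21 in block 2 of Nkx6.1, and -0.74, -0.34 and -0.19 in blocks 1, 2 and 3 of Olig2. Within 100 bp of the centre it became -0.021 for Nkx2.2 and -0.033 for Olig2 in block 1. Against peaks with a neighbour within 10 kb these were -0.0071 and -0.08003. Without HoxA it was -0.025 in block 3 of Nkx2.2 and 0.23 in block 1 of Nkx6.1. In block 1 of Olig2 it was -0.10 without HoxB and -0.10 without HoxD. The cause of these changes was not tested.

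At 4 times the flank, 84.6%, 61.5% and 15.4% of Nkx2.2 peaks passed in blocks 1, 2 and 3 (list 96.3%, 82.5% and 25.3%), 75%, 65% and 10% of Nkx6.1 peaks (list 97.4%, 86.2% and 15.0%), and 80.6%, 77.4% and 9.68% of Olig2 peaks (list 96.7%, 92.1% and 16.4%). Within 100 bp, 96.8% of Olig2 peaks passed 2 times the flank in block 1, beside 99.3% of the list. In the alternatives chosen after seeing the data, the log2 ratio of median flanks was 1.08 in block 1 and 0.10 in block 3 of Nkx2.2 without peaks that had a neighbour of their list within 3 kb. Without peaks that had a neighbour of any list, it was 0.43 in block 3 of Nkx2.2 and -0.20 in block 1 of Olig2. Fewer peaks entered these subsets. Depth per library is unknown, so no limit from depth could be given.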
